A study of Mus musculus with 6 samples.

Results

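The 10 genes described here encode proteins that release calcium from the sarcoplasmic reticulum of the heart or take it back up, and they were taken by gene symbol from a table of 20893 genes. They are Ryr2, Jph2, Casq2, Casq1, Atp2a2, Pln, Sln, Itpr1, Itpr2 and Itpr3, each found in 1 row. The tissue was whole heart of C57BL6/J mice with a germline knockout of Rbpms (R1KO in the labels, 3 libraries) and of wildtype mice (3 libraries). Rbpms encodes an RNA-binding protein, which stretch of it was deleted is not stated in these sources, and no other allele or treatment is named. The hearts are embryonic by the series title but neonatal by its design text, where the controls are littermates.

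In a heart muscle cell the sarcoplasmic reticulum is the store from which most calcium for contraction comes. Calcium entering through the surface membrane opens ryanodine receptors in the store, a pump then returns the calcium, and calsequestrin holds it there loosely bound. A second family of release channels, the inositol trisphosphate receptors, opens on a messenger made after hormone receptors are stimulated and lies partly around the nucleus of these cells.

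Of the 10 genes, Itpr2 rose and Casq1 fell in knockout hearts, and the other 8 did not pass the test. The test was limma on log2(value + 1) across all genes, with Benjamini-Hochberg adjusted p under 0.05. A share of 0.942% of 14974 tested genes passed it, 0.508% higher and 0.434% lower. To be tested a gene needed 3 or more libraries with a value of 10 or more, and all 10 members passed with 53 or more in every library. The groups did not overlap in 3 of the 10 (Casq1, Itpr1 and Itpr2), against 22% of all tested genes. An unadjusted p under 0.05 was reached by the same 3, against 16.4% of tested genes. The median log2 fold change of the 10 was -0.02, against -0.00089 over all tested genes.

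The sequences before the start sites of the 2 changed genes are shown because these are the members whose RNA level differed. Each window holds the 250 bases before the RefSeq start on the gene's strand, in GRCm38.p6, a build other than that of the expression table. Capitals mark matches on either strand to 5 short motifs that do not overlap here. The first is the E-box CAGCTG and the next the E-box form CACCTG, which helix-loop-helix factors bind. The others are the CCAAT box, the GC box with the letters GGGCGG, and the TATA box with the letters TATAAA.
Casq1, chr1:172219896-172220145, reverse strand: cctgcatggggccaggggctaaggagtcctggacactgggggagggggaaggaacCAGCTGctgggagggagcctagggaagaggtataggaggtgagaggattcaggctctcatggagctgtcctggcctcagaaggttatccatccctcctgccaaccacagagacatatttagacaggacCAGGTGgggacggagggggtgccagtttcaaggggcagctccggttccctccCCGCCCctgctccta
Itpr2, chr6:146502224-146502473, reverse strand: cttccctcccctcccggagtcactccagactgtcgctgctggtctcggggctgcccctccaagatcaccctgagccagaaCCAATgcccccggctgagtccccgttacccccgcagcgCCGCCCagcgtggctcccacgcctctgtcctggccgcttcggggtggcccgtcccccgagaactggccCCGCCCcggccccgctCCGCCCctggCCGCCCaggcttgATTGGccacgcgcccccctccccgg

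The Casq1 window held 1 match to CAGCTG, 1 to CACCTG and 1 GC box, with 61.6% G and C. The Itpr2 window held 2 CCAAT boxes and 4 GC boxes, with 74.4% G and C, against a median of 52.4% over 32851 such windows. Of all windows, 13% held CAGCTG, 17.2% held CACCTG, 33.8% a CCAAT box, 32.7% a GC box and 12.4% a TATA box. Neither of the 2 windows held a TATA box, and these letters say nothing of which factors bind there.

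Deposited values are reads scaled per library and rounded, so 1 unit is close to 1 read. Undoing the scaling gave totals that ran from 4163230 to 5805674 reads per library. Rbpms itself stood at 375, 340 and 507 in knockout hearts, against 1182, 1176 and 1317 in wildtype hearts (log2 fold change -1.61, standard error 0.14, limma adjusted p = 0.0124). Its paralogue Rbpms2 differed by -0.08 on the log2 scale (limma, adjusted p = 0.627). Knockout replicate 3 and wildtype replicate 1 were female by Xist and Y-linked genes and the other 4 libraries male. Heart muscle markers were high in every library, with 8 of 8 tested and a summed value of 17302 to 20159 in knockout and 19035 to 21579 in wildtype hearts. Summed atrial muscle markers, 10 of 10 tested, ran from 2915 to 3151 in knockout hearts and from 3237 to 4855 in wildtype hearts, and wildtype replicate 2 was the highest. Knockout replicate 3 stood apart in summed erythroid markers, 2177 against 743 to 953 in the other 5 libraries, and in epicardial markers, 573 against 1035 to 1178. The descriptions do not say whether the libraries are from separate animals, and p-values here cover the spread between libraries, which may be technical. In whole hearts, fewer cells of a type and less RNA per cell cannot be told apart. In all, 76 genes were higher and 65 lower in knockout hearts, and with upper quartile scaling 52 were higher and 78 lower.

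**Figure D1:**
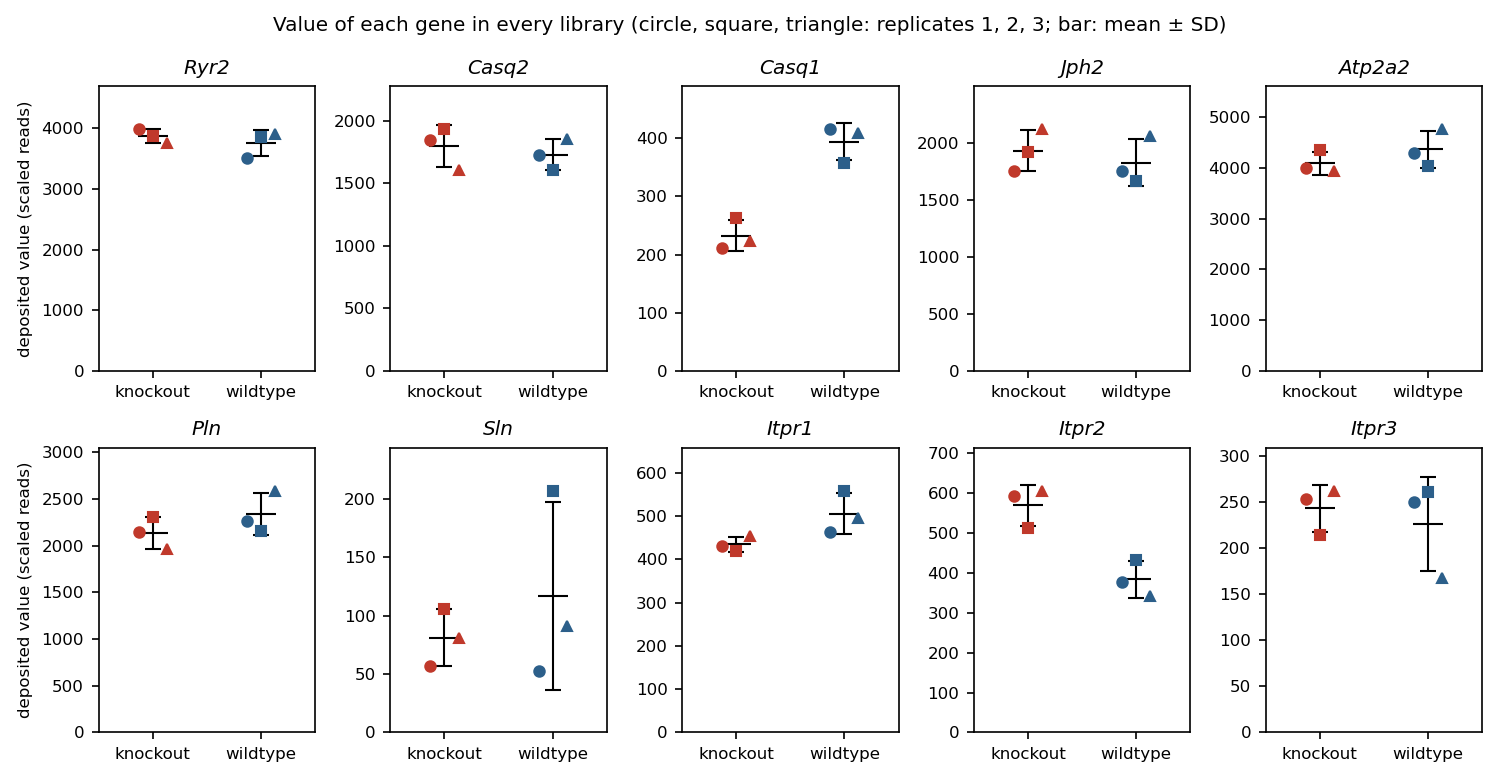
Deposited value (scaled reads, vertical axes from 0) of each of the 10 genes in the 3 knockout (red) and 3 wildtype (blue) libraries, with mean and SD as black bars. The knockout libraries of Casq1 lie between 211 and 263, below all wildtype libraries, and those of Itpr2 between 511 and 605, above all wildtype libraries.

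Ryr2 encodes the ryanodine receptor of heart muscle, the main calcium release channel of the store. In mm39 it spans positions 11567988 to 12121831 of chromosome 13 (reverse strand), and the coordinates of the other members are of the same build. Its value was 3979, 3874 and 3763 in knockout hearts, against 3511, 3860 and 3904 in wildtype hearts. The groups overlapped, and wildtype replicate 1 was the lowest library. The means were 3872 ± 108 in knockout and 3758 ± 215 in wildtype hearts (SD, n = 3 each), and the log2 difference was 0.04 (limma, adjusted p = 0.782). Its 95% interval ran from -0.10 to 0.19, which spans folds of 0.933 to 1.14.

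Jph2, on chromosome 2 from 163178162 to 163239913 (reverse strand), encodes junctophilin 2, which ties the store to the surface membrane so that release channels face calcium channels. It stood at 1754, 1917 and 2115 in knockout hearts, against 1752, 1660 and 2055 in wildtype hearts. The groups overlapped, with the third library the highest in each. Jph2 had a log2 fold change of 0.08, with a 95% interval from -0.13 to 0.30 (limma, adjusted p = 0.715). Jph2 gave 90.5% ± 1.87 of the summed level per kb of exon of Jph1, Jph2 and Jph4 in knockout hearts and 90.9% ± 1.71 in wildtype hearts (SD, n = 3 each).

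Of the 2 calsequestrins, Casq1 fell and Casq2 did not pass the test. Casq2, the calsequestrin of heart muscle, lies on chromosome 3 from 101993731 to 102053830 (forward strand). It held 1849, 1931 and 1609 in knockout hearts, against 1723, 1610 and 1857 in wildtype hearts. The groups overlapped over almost their whole range. Casq2 had a log2 fold change of 0.05, with a 95% interval from -0.14 to 0.24 (limma, adjusted p = 0.804).

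Casq1, best known as the calsequestrin of fast skeletal muscle, lies on chromosome 1 from 172037461 to 172047435 (reverse strand). It held 211, 263 and 224 in knockout hearts, against 415, 357 and 409 in wildtype hearts. Every knockout library was below every wildtype library. The means were 233 ± 27.1 in knockout and 394 ± 31.9 in wildtype hearts (SD, n = 3 each), which puts the knockout mean at 59.1% of the wildtype mean. Its log2 fold change of -0.76 had a standard error of 0.10 and a 95% interval from -0.99 to -0.53 (limma, adjusted p = 0.0221). It ranked 27 among all tested genes by p. The call was lost in fits without 1 library in which 6, 3, 0 and 0 of all tested genes passed. These left out knockout replicate 1 and wildtype replicates 1, 2 and 3, and gave Casq1 limma adjusted p of 0.0916, 0.147, 0.099 and 0.179. The log2 fold change without 1 library stayed between -0.85 and -0.69, and it was -0.70 in the male libraries alone (adjusted p = 0.0117).

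Per kb of exon, Casq1 made up 13.8%, 16.0% and 16.3% of both calsequestrins in knockout hearts, against 25.2%, 23.7% and 23.6% in wildtype hearts. The log2 ratio of Casq1 to Casq2 was taken after adding 1 to each value, and scaling of libraries can move it only through that 1. This ratio averaged -2.95 ± 0.16 in knockout and -2.13 ± 0.07 in wildtype hearts (SD, n = 3 each). The difference was -0.81 (two-sided exact permutation test, p = 0.1, the smallest that 3 against 3 libraries allow; 0.7 adjusted over 7 ratios), and all 3 knockout libraries were lower.

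Markers of other muscle types are given beside Casq1 because skeletal and smooth muscle can hold it. Of 12 skeletal muscle markers 10 were listed and 6 tested, and none passed a value of 49 in any library. Their sum was 109 to 156 in knockout hearts and 113 to 220 in wildtype hearts, with Myod1 listed at 0 in all but knockout replicate 1. Summed smooth muscle markers, 6 of 6 tested, ran from 2352 to 2812 in knockout hearts and from 3024 to 3337 in wildtype hearts, and 0 of the 6 were called. Not all followed the sum: the groups overlapped for Tagln (log2 fold change -0.03) and for Lmod1, which had 0.73. The part of smooth muscle and atrial cells in the Casq1 result was not tested. The long noncoding gene Gm17224 overlaps Casq1 on the opposite strand and held 7, 15 and 10 in knockout hearts, against 18, 25 and 24 in wildtype hearts. Whether the authors' counting used strand is not stated in these sources.

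**Figure D2:**
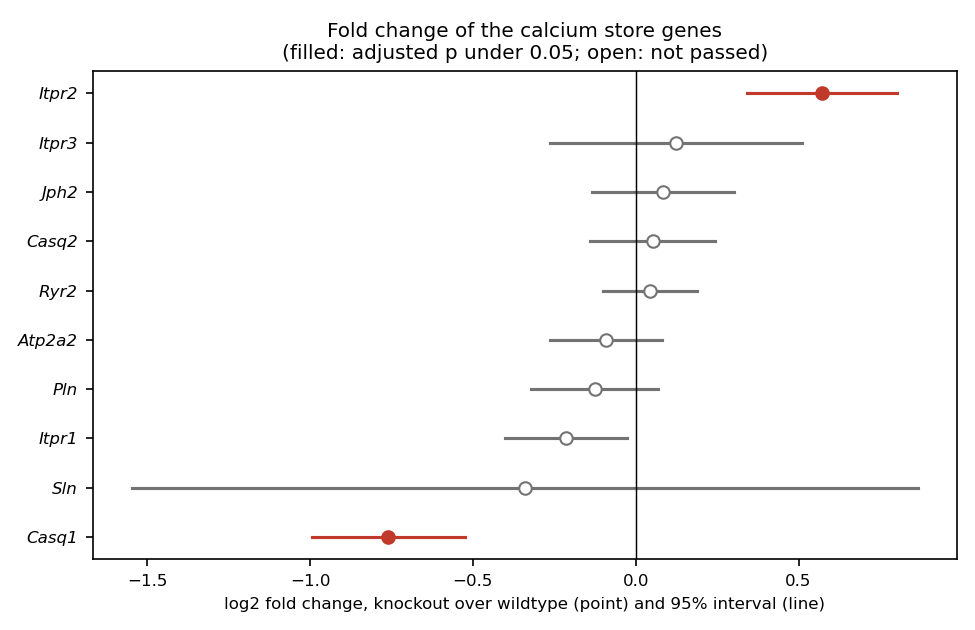
Log2 fold change of knockout over wildtype (points, horizontal axis) with its 95% interval (lines) for the 10 genes, from the highest at the top. Itpr2 at 0.57 and Casq1 at -0.76 are filled because their adjusted p was under 0.05, and Sln has the widest interval.

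Atp2a2 encodes the SERCA2 pump, which returns calcium to the store in heart muscle. It lies on chromosome 5 from 122591576 to 122640288 (reverse strand). Its value was 3996, 4354 and 3934 in knockout hearts, against 4290, 4045 and 4757 in wildtype hearts. The groups overlapped, and wildtype replicate 3 was the highest library. For Atp2a2 the log2 fold change was -0.09, with a 95% interval from -0.26 to 0.08 (limma, adjusted p = 0.599). Of the summed level per kb of exon of the 3 pump genes, Atp2a2 gave 94.6% ± 0.371 in knockout and 94.0% ± 0.901 in wildtype hearts (SD, n = 3 each). Atp2a3 gave 5.03% ± 0.539 in knockout and 5.45% ± 0.564 in wildtype hearts, and Atp2a1, the skeletal form, under 1% in every library.

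Pln encodes phospholamban, a small membrane protein that slows the pump until it is phosphorylated. It lies on chromosome 10 from 53213763 to 53222083 (forward strand) and held 2143, 2305 and 1962 in knockout hearts, against 2263, 2156 and 2584 in wildtype hearts. The groups overlapped. For Pln the log2 fold change was -0.13, with a 95% interval from -0.32 to 0.07 (limma, adjusted p = 0.508). The ratio of Pln to Atp2a2 values was 53.6%, 52.9% and 49.9% in knockout hearts, against 52.8%, 53.3% and 54.3% in wildtype hearts. On the log2 scale that ratio differed by -0.04 (two-sided exact permutation test, p = 0.5, 0.9 adjusted over 7 ratios). Knockout replicates 1 and 2 lay inside the wildtype range and replicate 3 below it. Pln shares its span with Cep85l and the long noncoding gene Gm47644 on the opposite strand, which held 263 to 337 and 750 to 975 over the 6 libraries.

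Sln encodes sarcolipin, a related inhibitor of the pump that in the heart belongs mainly to the atria. It lies on chromosome 9 from 53757448 to 53761844 (forward strand). Its value was 57, 106 and 81 in knockout hearts, against 53, 207 and 91 in wildtype hearts. The groups overlapped, and wildtype replicate 2 held more than the other 2 wildtype libraries together. For Sln the log2 fold change was -0.34, with a 95% interval from -1.55 to 0.87 (limma, adjusted p = 0.789), and it was 0.18 without wildtype replicate 2 (adjusted p = 0.829).

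The atrial markers Sbk2 and Sbk3 were also highest in wildtype replicate 2. Sbk2 held 34, 31 and 19 in knockout hearts, against 59, 322 and 70 in wildtype hearts. Sbk3 held 25, 26 and 20 in knockout hearts, against 29, 353 and 53 in wildtype hearts. Of the 10 atrial markers 1 fell and 0 rose, with a median log2 fold change of -0.35. Over all tested genes 0.434% were lower and 0.508% higher. The 1 marker was Stard10, close to the threshold (log2 fold change -0.64, limma adjusted p = 0.0472). Not all atrial markers were lower: Nppa and Bmp10 stood 0.09 and 0.26 higher in knockout hearts on the log2 scale, and neither passed the test. Nppa held 752, 763 and 743 in knockout hearts, against 699, 691 and 737 in wildtype hearts. It was lowest in wildtype replicate 2, and every knockout library was above every wildtype library. Bmp10 was highest in wildtype replicate 2, at 464, and its groups overlapped. The part of atrial tissue in the Sln values was not tested.

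**Figure D3:**
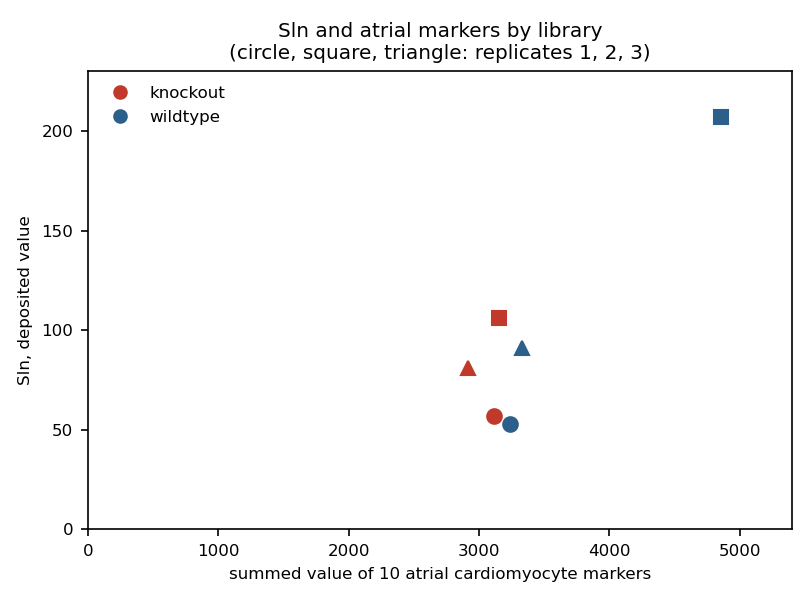
Sln value (vertical axis) against the summed value of 10 atrial muscle markers (horizontal axis) in each of the 6 libraries, knockout in red and wildtype in blue. Wildtype replicate 2, at 207 and 4855, lies apart from the other 5 libraries, which have Sln values of 53 to 106.

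Itpr2 encodes the inositol trisphosphate receptor that is the main form in heart muscle cells. It lies on chromosome 6 from 146009797 to 146403721 (reverse strand). Its value was 592, 511 and 605 in knockout hearts, against 377, 432 and 341 in wildtype hearts. Every knockout library was above every wildtype library. The means were 569 ± 50.9 in knockout and 383 ± 45.8 in wildtype hearts (SD, n = 3 each), so that the knockout mean was 149% of the wildtype mean. Its log2 fold change of 0.57 had a standard error of 0.10 and a 95% interval from 0.34 to 0.80 (limma, adjusted p = 0.0472). This was close to the threshold, and Itpr2 ranked 98 among all tested genes by p. The adjusted p was 0.145 without knockout replicate 1 and 0.233, 0.099 and 0.219 without wildtype replicates 1, 2 and 3. In these fits 6, 3, 0 and 0 of all tested genes passed. Itpr2 kept a log2 fold change between 0.49 and 0.66 without 1 library. It also missed the threshold by voom on recovered reads (0.066), with equal library totals (0.0561), without robust moderation (0.0544) and in the male libraries alone (0.0531), with log2 fold changes of 0.52 to 0.57.

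Itpr1, the form that predominates in neurons and smooth muscle, lies on the same chromosome from 108190057 to 108528070 (forward strand). It held 431, 420 and 453 in knockout hearts, against 463, 558 and 496 in wildtype hearts. Every knockout library was below every wildtype library. Itpr1 had a log2 fold change of -0.21, with a 95% interval from -0.40 to -0.03 and an unadjusted p of 0.0285, and it did not pass across all genes (limma, adjusted p = 0.236). The summed smooth muscle markers given above were likewise lower in every knockout library, although Tagln and Lmod1 did not follow the sum. The part of smooth muscle in the Itpr1 values was not tested.

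Itpr3, the form of many epithelial cells, lies on chromosome 17 from 27276278 to 27341197 (forward strand). It held 253, 214 and 262 in knockout hearts, against 250, 261 and 168 in wildtype hearts. The groups overlapped, and wildtype replicate 3 was the lowest library. Itpr3 had a log2 fold change of 0.12, with a 95% interval from -0.26 to 0.51 (limma, adjusted p = 0.768).

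Within the receptor family, the share of Itpr2 per kb of exon lay in a narrow range in each group. Itpr2 made up 43.7%, 42.5% and 43.2% of the 3 receptors in knockout hearts, against 32.5%, 32.9% and 33.5% in wildtype hearts. Itpr1 made up 25.7%, 28.2% and 26.1% in knockout hearts, against 32.2%, 34.4% and 39.4% in wildtype hearts. The Itpr1 and Itpr3 shares spread more widely in wildtype than in knockout hearts. Itpr3 made up 30.2% ± 0.828 in knockout and 31.7% ± 4.2 in wildtype hearts (SD, n = 3 each). These shares were looked at after the values were seen and carry no test.

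The 3 receptors together held 1276, 1145 and 1320 in knockout hearts, against 1090, 1251 and 1005 in wildtype hearts, and the groups overlapped. Their sum was 32.2% ± 2.76 of the Ryr2 value in knockout hearts and 29.7% ± 3.52 in wildtype hearts (SD, n = 3 each). On the log2 scale that ratio differed by 0.12 (two-sided exact permutation test, p = 0.5, 0.9 adjusted over 7 ratios).

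**Figure D4:**
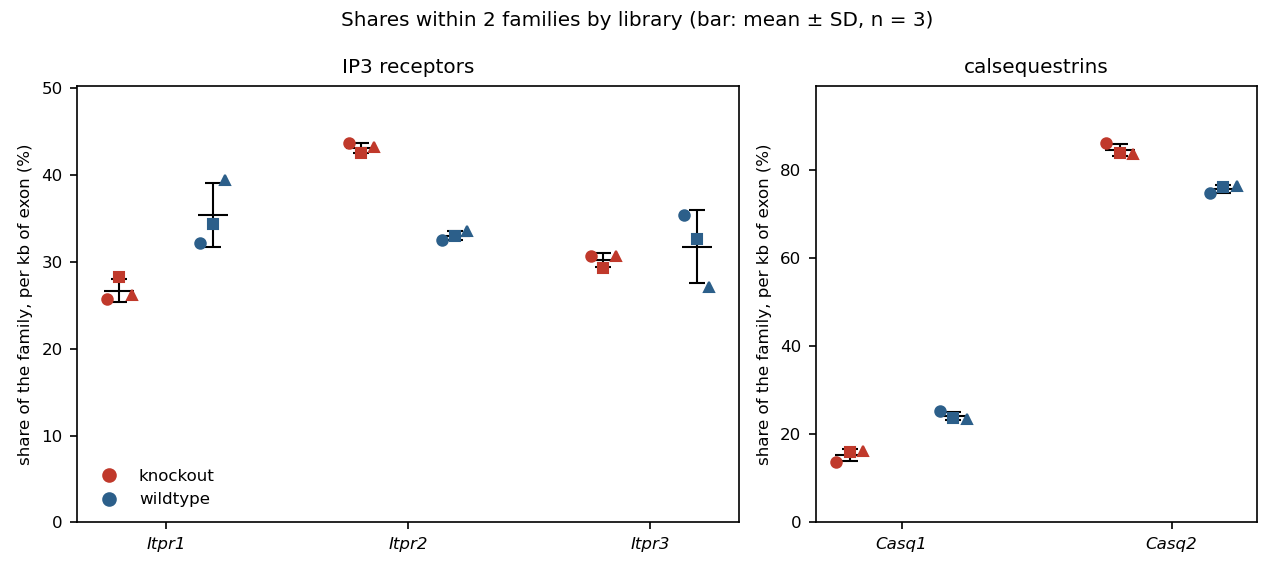
Share of each gene in its family, from values per kb of exon (%, vertical axes from 0), for the inositol trisphosphate receptors and the calsequestrins in 3 knockout (red) and 3 wildtype (blue) libraries, with mean and SD. Itpr2 lies between 42.5% and 43.7% in knockout and 32.5% and 33.5% in wildtype hearts, and Casq1 between 13.8% and 16.3% in knockout and 23.6% and 25.2% in wildtype hearts.

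Among the remaining ratios, Jph2 to Ryr2, Ryr2 to Casq2, Sln to Atp2a2 and Sln to Pln had differences of 0.04, -0.01, -0.25 and -0.21 on the log2 scale, with overlapping groups. Their two-sided exact permutation tests gave p = 0.8 to 0.9, all 0.9 adjusted over 7 ratios.

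Levels are set side by side per kb of exon, with lengths from an annotation of another build. Each length joined the exons of all annotated transcripts of a gene, 28790 bases for Ryr2 and 1951 for Casq1. Lengths of single transcripts could give another order between genes and other family shares, which was not tested. Picard, which can remove duplicate reads, is among the authors' tools, but its use is not stated. Removal of duplicates, if it was done, would limit the reads of a gene by the length of its exons and so understate the densest genes. Pln, Atp2a2 and Casq2 had mean densities of 0.811, 0.697 and 0.648 reads for each base of exon, 77 tested genes were above 0.5 and none was above 0.925. Whether density limited the values, fold changes and order of these 3 genes was not tested. As deposited, Pln stood highest, at 774 ± 62.2 per kb in knockout and 846 ± 80.7 in wildtype hearts (SD, n = 3 each). Atp2a2 followed at 673 ± 37.3 in knockout and 718 ± 59.5 in wildtype hearts. Casq2 came next at 657 ± 61.2 in knockout and 632 ± 45.2 in wildtype hearts, and Jph2 at 453 ± 42.5 in knockout and 428 ± 48.6 in wildtype hearts. Pln exceeded Atp2a2 in 6 of 6 libraries, although their ranges over libraries overlapped, and Atp2a2 exceeded Casq2 in 5 of 6. Casq2 exceeded Jph2, and Jph2 exceeded Casq1, in 6 of 6 libraries.

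Lower in the order, Casq1 had 119 ± 13.9 per kb in knockout and 202 ± 16.3 in wildtype hearts, and Ryr2 had 134 ± 3.75 in knockout and 131 ± 7.48 in wildtype hearts (SD, n = 3 each). By mean and with these joined lengths, Casq1 lay below Ryr2 in knockout hearts and above it in wildtype hearts. Where Casq1 stands relative to Ryr2 in either group depends on the length used. Sln had 61.7 ± 18.6 in knockout and 88.8 ± 60.9 in wildtype hearts. The 3 receptors for inositol trisphosphate were the lowest, at 23.7 to 38.5 per kb in knockout and 25.1 to 27.6 in wildtype hearts. By mean the receptors ran Itpr2, Itpr3, Itpr1 in knockout and Itpr1, Itpr2, Itpr3 in wildtype hearts. In wildtype hearts these neighbours did not differ beyond their spread.

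The 7 members other than Pln, Atp2a2 and Casq2 had densities below 0.5, with Casq1 at 0.159 and Itpr2 at 0.0331.

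**Figure D5:**
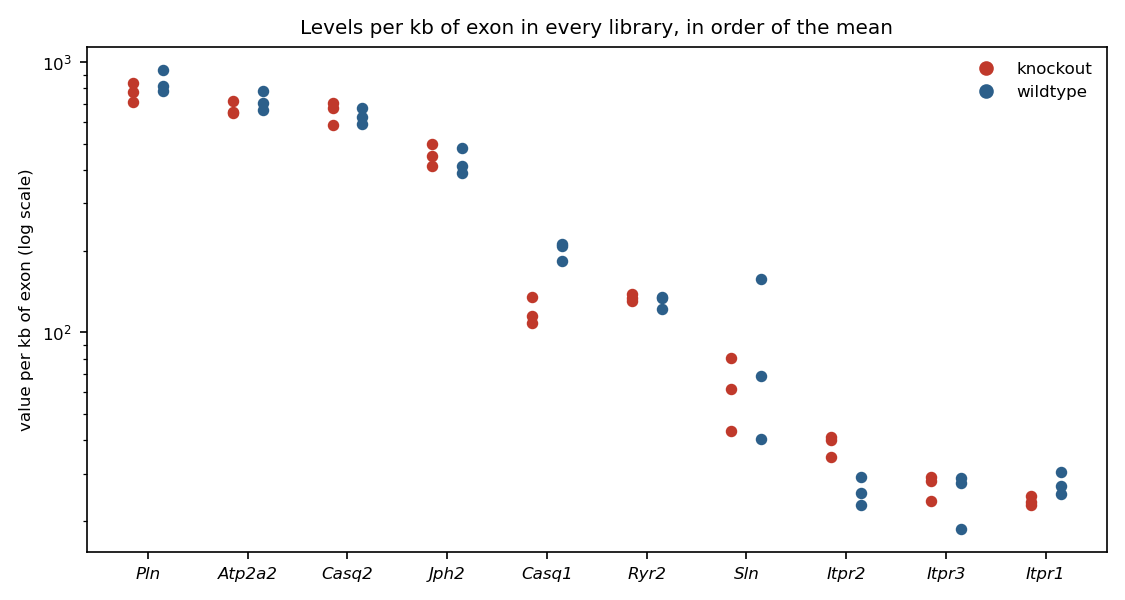
Value per kb of exon (vertical log axis) of the 10 genes in each knockout (red) and wildtype (blue) library, ordered by the mean over 6 libraries. Pln, Atp2a2, Casq2 and Jph2 lie above the other genes in every library. With exon lengths joined over all transcripts, the place of Casq1 relative to Ryr2 differs between the groups by mean.

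Partners and regulators of the store were followed with a list of 55 other genes, of which 52 were listed in the table and 49 tested. Of the rest, 3 were not found in the table by symbol, and 3 were listed with values too low to be tested. Of the 49, 0 rose, 1 fell and 48 did not pass, with a median log2 fold change of 0.03. Over all tested genes 0.942% passed. An unadjusted limma p under 0.05 was reached by 7 of the 49, against 16.4% of all tested genes. The 1 gene was Ppp1r1a, which encodes an inhibitor of protein phosphatase 1 that acts once phosphorylated by protein kinase A. It held 118, 115 and 114 in knockout hearts, against 188, 204 and 197 in wildtype hearts. The groups did not overlap, with a log2 fold change of -0.76 and a standard error of 0.10 (limma, adjusted p = 0.0219). The list held 0 changed genes without knockout replicate 1 or any 1 wildtype replicate, 3 without knockout replicate 2 and 4 without knockout replicate 3. Over all genes, 6 passed without knockout replicate 1, and 3, 0 and 0 without wildtype replicates 1, 2 and 3. Without knockout replicates 2 and 3 the numbers were 495 and 703.

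The 7 genes next in order of p did not pass the test across all genes. Akap6, which anchors protein kinase A beside ryanodine receptors, held 1239, 1185 and 1136 in knockout hearts, against 843, 1004 and 925 in wildtype hearts (log2 0.36, limma adjusted p = 0.0636). Bcl2, a survival protein that can bind inositol trisphosphate receptors, held 244, 243 and 361 in knockout hearts, against 153, 172 and 177 in wildtype hearts (log2 0.73, limma adjusted p = 0.0669). Asph, whose gene also encodes the calsequestrin anchor junctin, differed by 0.20 on the log2 scale (limma, adjusted p = 0.133). The groups did not overlap in any of these 3 genes, which were picked by p. Over the 49 tested genes of the list, 9 did not overlap, against 22% of all tested genes.

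Stim1, which senses calcium in the store, had a log2 fold change of -0.32, and Sri, encoding sorcin, a calcium-binding partner of Ryr2, of 0.20 (limma, adjusted p = 0.175 and 0.214). Camk2b, a calmodulin-dependent kinase subunit, had -0.69, and Ppp1r3a, which targets protein phosphatase 1 to the store, had 0.24 (adjusted p = 0.235 and 0.315). Triadin (Trdn), also of the release complex with Casq2, and the histidine-rich calcium-binding protein (Hrc) were singled out after their values were seen. They had log2 fold changes of -0.01 and -0.13 (limma, adjusted p = 0.957 and 0.625).

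Ryr3 and Ryr1 were minor beside Ryr2. Ryr2 gave 98.3% ± 0.683 of the summed level per kb of exon of the 3 ryanodine receptor genes in knockout hearts and 97.1% ± 1.93 in wildtype hearts (SD, n = 3 each). Ryr3 held 24, 61 and 43 in knockout hearts, against 47, 130 and 37 in wildtype hearts, and was highest in wildtype replicate 2, like Sln. Ryr1, the skeletal form, was at most 7 in any library.

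The genes whose values ran most like those of the 2 changed members were sought among 10120 genes with a mean value of at least 100. The measure was the root mean square distance between log2 values centred on their mean over the 6 libraries. Nearest to Casq1 were Prim1, Prps2 and Col26a1, at distances of 0.071, 0.1 and 0.108. Prim1, a subunit of DNA primase, held 79, 106 and 78 in knockout hearts, against 146, 130 and 146 in wildtype hearts. Nearest to Itpr2 were Aif1l, Nt5e and Snx30, at 0.0501, 0.0609 and 0.0682. Nt5e, an enzyme that makes adenosine at the cell surface, held 316, 279 and 314 in knockout hearts, against 209, 247 and 201 in wildtype hearts. Prps2 and Snx30 passed the test (limma, adjusted p = 0.0202 and 0.0494). Prim1, Col26a1, Aif1l and Nt5e did not (limma, adjusted p = 0.0733, 0.0947, 0.0505 and 0.0697). All were picked for nearness to a changed member, so their group differences are no separate result.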

How the data were processed

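The deposited values carry the unit score. They are whole numbers, and their spacing shows that the authors scaled the reads of each library before rounding them. The submitters' processing notes name the build mm39 and, without role or order, DESeq2 1.36.0, featureCounts 2.0.4, Picard 3.0.0, STAR 2.7.11a and Trimmomatic 0.39. Factors read from the spacing of low values were 0.937, 1.04 and 0.852 in knockout and 1.04, 0.957 and 1.18 in wildtype replicates 1, 2 and 3.

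Because the values were not raw counts, limma 3.58.1 (statmod 1.5.0, R 4.3.3) was fitted to log2(value + 1) of all 6 libraries without covariates, its prior variance following the mean level and its moderation robust. Fold changes on this scale understate the change of low genes. Exon lengths came from GENCODE M21 (GRCm38), joined over all transcripts of a gene and matched by gene identifier for 98.2% of tested genes. Promoter sequences came from RefSeq, with entries for 7 of 10 members. The scripts were tested on simulated data. The members and lists were chosen with earlier results of these data known. Named genes were all members, Rbpms and Rbpms2, the 8 other store genes with the smallest p, and the 3 genes nearest each changed member. Outside this rule, and after their values were seen, other genes were named where a member's result turned on them: Trdn, Hrc, minor family members such as Ryr3 and Atp2a3, markers such as Sbk2, and genes overlapping a member. Alternatives covered scaling, filter, pseudocount, moderation, voom, sex, replicate number and leaving out each library.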

Additional observations from a re-analysis of the deposited data

How the results depend on the processing

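Over 17 alternatives Casq1 passed the threshold in 12 and Itpr2 in 7, and both kept their direction in all 17; no other member passed in any. Without each library in turn, 0 to 703 genes changed, with 0 to 2 members and 0 to 4 of the other store genes. With no filter 218 genes changed (3 other store genes), without robust moderation 90 (1 member), by voom on recovered reads 73 (1 member) and on deposited values 72 (1 member), with a term for sex 223 (2 other store genes), and in male libraries only 259 (1 member, 2 other store genes). With equal totals 1 member changed.

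With the replicate number as a block 23 genes changed, with 0 members and 0 other store genes. Same-numbered libraries correlated by -0.169, -0.111 and -0.130 in their deviations, which gives no sign of pairing by number. The highest values were 0.125 (knockout 1 with wildtype 2), 0.136 (knockout 2 with wildtype 3) and 0.124 (knockout 3 with wildtype 1, both female). Whether libraries pair in another way was not tested.

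Small log2 fold changes crossed 0 without 1 library: ranges were -0.0041 to 0.072 for Ryr2, -0.79 to 0.18 for Sln, -0.0019 to 0.13 for Casq2 and -0.077 to 0.24 for Itpr3, and Jph2 was -0.010 in male libraries. Ratios ranged from -0.69 to 0.32 (Sln to Atp2a2), -0.65 to 0.36 (Sln to Pln), -0.065 to 0.062 (Ryr2 to Casq2) and -0.050 to 0.13 (Jph2 to Ryr2). The causes were not tested. Counting error weighs more on Sln, at 53 to 207 units, than on members with higher values, and its part in these ranges was not tested.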
